A study of Homo sapiens with 8 samples.

Results

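Neurotrophins and their receptors were described here as 6 genes: the ligands BDNF and NTF3, the receptor tyrosine kinases NTRK2 and NTRK3, the p75 receptor NGFR and the sorting receptor SORT1. They were chosen by name, the TPM of their transcripts (a length-corrected share of all transcripts in a library) were summed per gene, and NTRK2 and NTRK3 transcripts were also split by whether they encode the kinase motifs. These 6 genes stand among 52719 genes in the data, of which 17077 had a mean of 1 TPM or more and were tested. The cells were SH-SY5Y, a human neuroblastoma line. The differentiated group was 4 RNA-seq libraries (replicates 21 to 24) of cells given 1 µM 9-cis retinoic acid, a ligand of the retinoid receptors, over 7 days. The undifferentiated group was 4 libraries (replicates 17 to 20) with no treatment in their labels. All 8 libraries came from the same line, grown in a serum-containing medium. The labels do not give the time in culture of the undifferentiated cells, and do not say whether the replicates were separate cultures, so the p-values given here reflect the variation among these 8 libraries and may reflect technical variation alone.

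Neurotrophins are secreted growth factors that keep neurons alive and shape their processes. They are made as pro-forms and cut to mature ligands. BDNF and neurotrophin-4 (NTF4) act mainly through TrkB (NTRK2), and neurotrophin-3 (NTF3) through TrkC (NTRK3). The p75 receptor binds every mature neurotrophin and, together with sortilin, the pro-forms. Trk receptors signal through an intracellular kinase domain, and splice forms that lack it still bind ligand. In SH-SY5Y cells, retinoic acid followed by BDNF is a widely used way to obtain neuron-like cells, in which TrkB is the receptor addressed by the added BDNF.

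NTRK2 is described by transcript class as well as in total, and the classes are told apart by where their coding sequence ends. NTRK2 (ENSG00000148053) lies on the plus strand of chromosome 9, chr9:84668551-85027070 in GRCh38. Its transcripts fell into 3 classes. The T1 form (NTRK2-204 and NTRK2-208) encodes 477 amino acids without a kinase domain. The T-Shc form (NTRK2-202 and NTRK2-205) encodes 553 and 537 amino acids and reaches the Shc docking region but not the kinase domain. The full-length form was carried by NTRK2-206 and NTRK2-207, which encode 822 and 838 amino acids with the kinase domain. The sequences show the splits, with the last 30 shared coding bases in lower case and the bases that follow the split in capitals. T1 goes on at chr9:84810542-84810576 with 11 codons of its own, and the full-length form goes on at chr9:84867243-84867302, the first 60 bases of a further 356 codons. T-Shc goes on at chr9:84871789-84871814 with 8 codons of its own, and the full-length form goes on at chr9:84934162-84934221, the first 60 bases of a further 293 codons. Each split falls inside a codon, after its first base, and these counts leave out the codon that spans the split.
NTRK2-204 (T1): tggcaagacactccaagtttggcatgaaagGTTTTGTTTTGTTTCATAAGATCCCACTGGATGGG
NTRK2-206 (full-length) at the T1 split: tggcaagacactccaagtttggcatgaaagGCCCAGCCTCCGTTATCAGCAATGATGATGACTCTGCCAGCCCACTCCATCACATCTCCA
NTRK2-205 (T-Shc): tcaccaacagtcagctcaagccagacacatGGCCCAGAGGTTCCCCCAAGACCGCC
NTRK2-206 (full-length) at the T-Shc split: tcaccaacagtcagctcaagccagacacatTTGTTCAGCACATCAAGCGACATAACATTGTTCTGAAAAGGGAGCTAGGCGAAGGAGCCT
These are reference sequences of the GENCODE 29 transcripts on GRCh38, and all of them are exonic. Counting the untranslated part of the last exons, NTRK2-204 holds 5161 bases that the other coding ends do not, NTRK2-205 holds 6110 and NTRK2-206 holds 3425, so each class has kilobases of its own from which reads can be assigned to it.

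TPM carries no read depth, and with the depth unknown the values have no counting intervals. The 4 differentiated libraries were all run in lane 8, whereas 2 undifferentiated libraries were run in lane 7 and 2 in lane 8. The first principal component separated the groups, and differentiated replicate 22 stood apart from the other differentiated libraries on the second, at -50.7 against -4.09 to 35.7. The median TPM of the tested genes was 12.4 in differentiated replicate 22 and 13.8 to 15.3 in the other 3 differentiated libraries, against 11.9 to 12.2 in undifferentiated libraries. Retinoic acid response genes rose in 6 of 7 cases, among them RARB, a retinoid receptor gene, at 105 ± 1.44 TPM in differentiated cells and 6.25 ± 0.439 TPM in undifferentiated cells (SD, n = 4 each). Of 11 tested markers of noradrenergic neuroblastoma, 8 fell and 1 rose, and HAND2, a transcription factor of this lineage, stood at 422 ± 20.0 TPM in differentiated cells and 440 ± 7.48 TPM in undifferentiated cells. For comparison, 33.9% of all tested genes rose and 17.4% fell. Of all genes called, 66.1% were higher in differentiated cells with TPM as deposited, 50.5% after median-of-ratios scaling and 45.4% after quantile normalization, and the median log2 fold change of all tested genes was 0.10, -0.02 and -0.06 under these scalings in turn.

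BDNF (ENSG00000176697, minus strand, chr11:27654893-27722058, GRCh38), the main ligand of TrkB, was low in these cells and higher after treatment. Its level was 1.60, 1.68, 1.69 and 1.49 TPM in differentiated replicates 21 to 24, against 1.02, 0.802, 1.00 and 0.975 TPM in undifferentiated replicates 17 to 20. Every differentiated library lay above every undifferentiated library. The log2 fold change of TPM + 1 was 0.42 ± 0.10 (SE), with an adjusted p of 0.00662 in limma, Benjamini-Hochberg adjusted over all genes tested; with the pseudocount of 1, fold changes of genes this low are understated, and the means differed 1.70-fold. At the adjusted p threshold of 0.05 used throughout, 51.3% of all tested genes were called, 33.9% as higher in differentiated cells and 17.4% as lower. The groups did not overlap in 49.6% of all tested genes, with differentiated libraries above in 32.3%. Within lane 8 the BDNF difference was 0.39, with an adjusted p of 0.0487 in limma. After quantile normalization it was 0.28 and no longer passed (adjusted p = 0.0749, limma).

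Only 1 BDNF transcript averaged 0.5 TPM or more in either group, and its mean was lower in differentiated cells, a difference that did not pass. BDNF-210, which starts 21.0 kb into the gene and encodes a 329-residue form of the precursor, was at 0.401, 0.653, 0.287 and 0.453 TPM in differentiated replicates 21 to 24 and at 0.563, 0.628, 0.832 and 0.583 TPM in undifferentiated replicates 17 to 20. The groups overlapped, and the exact two-sided permutation test gave p = 0.114. BDNF-210 made up 27.8% ± 9.16 of the gene's TPM in differentiated cells and 69.1% ± 13.6 in undifferentiated cells (SD, n = 4 each), a description at the low level of this gene.

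The other BDNF transcripts summed to 1.20, 1.03, 1.40 and 1.04 TPM in differentiated replicates 21 to 24, against 0.456, 0.174, 0.172 and 0.392 TPM in undifferentiated replicates 17 to 20. This sum was formed after the values were seen and carries no test. BDNF has several alternative first exons spliced to a common coding exon, and its transcripts are grouped here by where they start. All of them run to the same last base, chr11:27654893, so only the bases before the common exon tell the starts apart. At these levels the division among starts is a description, uncertain in how shared reads were divided. The 3 transcripts that start 21.6 kb into the gene (BDNF-202, BDNF-208 and BDNF-218) reached 0.416 ± 0.158 TPM in differentiated cells and 0.0620 ± 0.101 TPM in undifferentiated cells. The 2 that start 62.4 kb into the gene (BDNF-211 and BDNF-212) reached 0.312 ± 0.0244 TPM in differentiated cells and 0.143 ± 0.0338 TPM in undifferentiated cells. Most of that was BDNF-212, at 0.272 TPM in differentiated cells and 0.115 TPM in undifferentiated cells. BDNF-212 is unspliced, its 4766 bases filling chr11:27654893-27659658, and whether its level reflects use of that start was not tested. BDNF-204, which starts 20.4 kb into the gene, was at 0.251 ± 0.124 TPM in differentiated cells and 0.0615 ± 0.0995 TPM in undifferentiated cells, and its groups overlapped. In the 21.6 kb and 62.4 kb groups every differentiated library was above every undifferentiated library, while the libraries of the 21.0 kb group overlapped, at 0.611 ± 0.0767 TPM in differentiated cells and 0.683 ± 0.124 TPM in undifferentiated cells. Transcripts starting in the first 2.31 kb of the gene were listed at 0 in all 8 libraries.

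**Figure D1:**
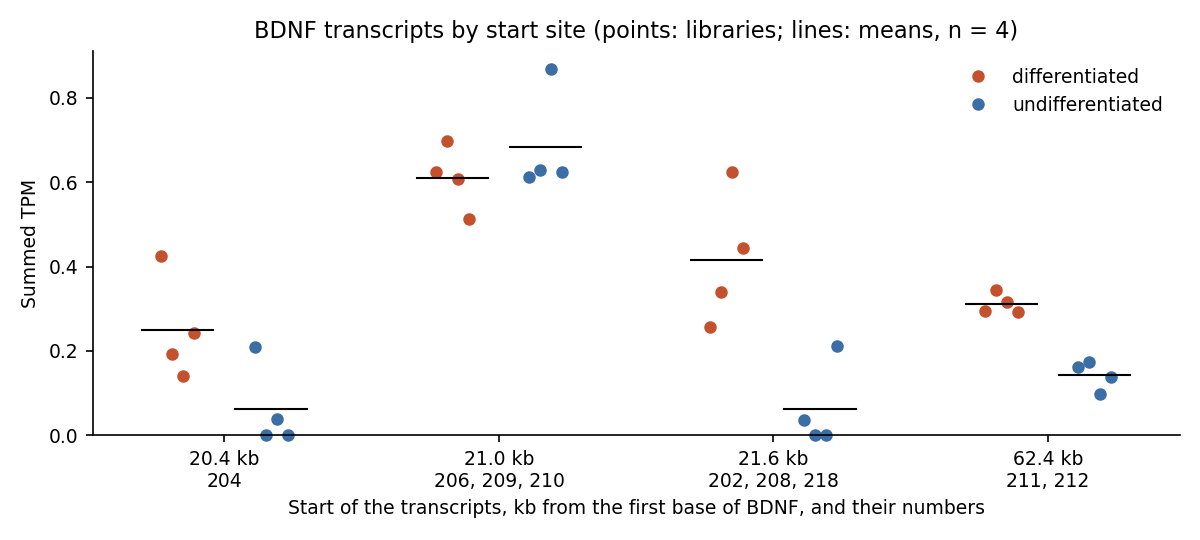
Summed TPM of BDNF transcripts that share a start (y axis) against that start in kb from the first base of the gene (x axis, with the transcript numbers), 4 libraries per group as points and group means as lines. The 21.0 kb group is the only one of those drawn with a lower mean in differentiated cells, 0.611 against 0.683 TPM, and its points overlap.

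BDNF-AS, an antisense RNA whose gene overlaps BDNF on the other strand (chr11:27506838-27698174), was at 2.45, 1.47, 1.72 and 2.27 TPM in differentiated replicates 21 to 24, against 1.72, 1.10, 1.09 and 1.03 TPM in undifferentiated replicates 17 to 20. The groups overlapped, and the log2 fold change of 0.41 did not pass (adjusted p = 0.0538, limma). It passed in limma with no intensity trend (0.41, adjusted p = 0.0381), without differentiated replicate 22 (0.50, adjusted p = 0.0240) and without undifferentiated replicate 17 (0.51, adjusted p = 0.0272). The libraries were made with a stranded kit, but the strand setting used for quantification is not given, so where the genes overlap, BDNF and BDNF-AS values are uncertain.

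NTF3 (ENSG00000185652, plus strand, chr12:5432112-5521536), the ligand of TrkC, was listed at 0 in all 4 differentiated libraries and in 3 of 4 undifferentiated libraries. Undifferentiated replicate 19 had 0.0356 TPM. No fold change is given for a group listed at 0.

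NTRK2, the gene of the BDNF receptor TrkB, was the member with the largest difference between the groups. Its level was 53.2, 33.5, 41.3 and 44.3 TPM in differentiated replicates 21 to 24, against 0.251, 0.254, 0.236 and 0.298 TPM in undifferentiated replicates 17 to 20. The means were 43.1 ± 8.14 TPM in differentiated cells and 0.260 ± 0.0268 TPM in undifferentiated cells (SD, n = 4 each), a 166-fold ratio. The log2 fold change of TPM + 1 was 5.11 ± 0.13 (SE), with an adjusted p of 3.14e-08 in limma over all genes tested. Its range over the other settings tried was 5.01 to 6.89, the upper end with a pseudocount of 0.1, and within lane 8 it was 5.10. In bulk RNA, more cells with the message and more message per cell cannot be told apart, here and for every gene below.

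**Figure D2:**
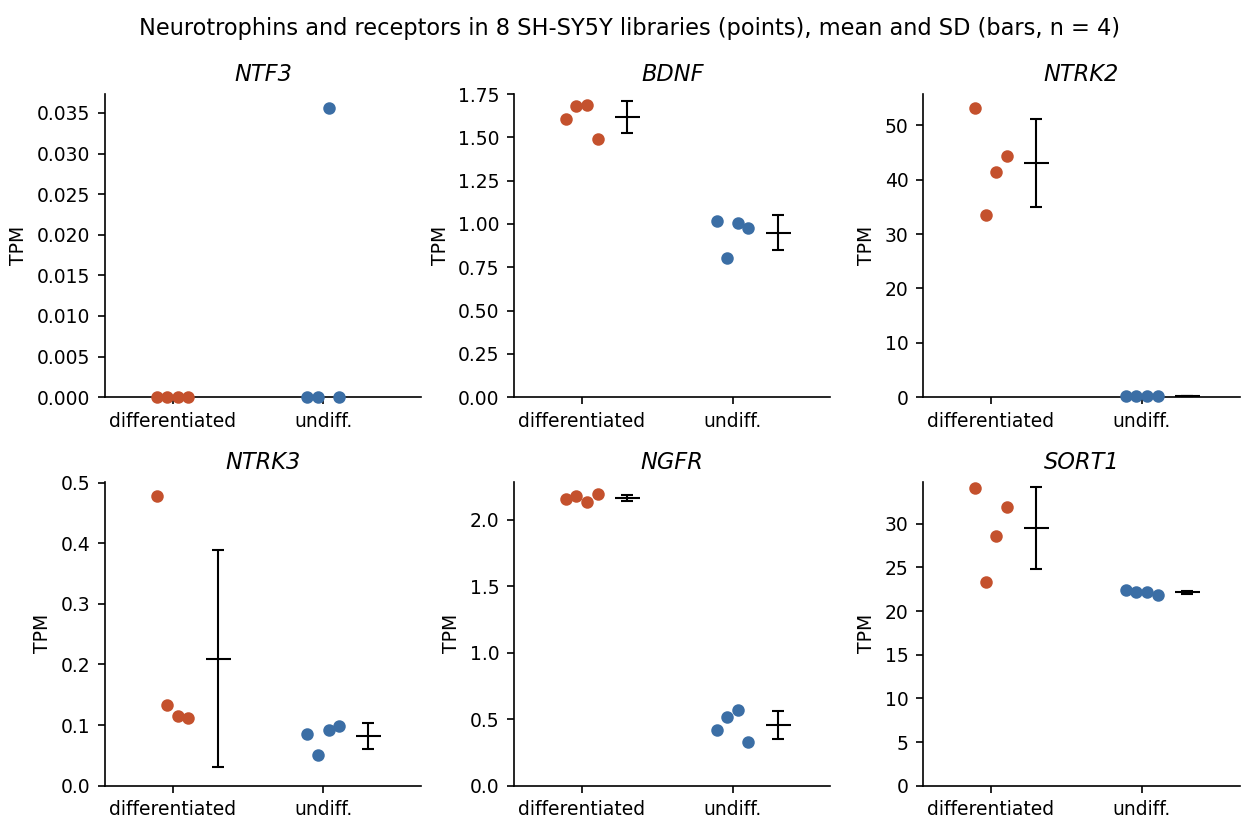
TPM (y axes, linear from 0) of the 6 genes in 4 differentiated (left) and 4 undifferentiated libraries, as points, with mean and SD beside them except for NTF3. NTRK2 lies between 33.5 and 53.2 TPM in differentiated libraries and at or below 0.298 TPM in undifferentiated libraries, and NTF3 is above 0 in 1 undifferentiated library.

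Most of the NTRK2 message in differentiated cells was the T1 form, which lacks the kinase. T1 was at 40.8, 28.0, 32.8 and 34.4 TPM in differentiated replicates 21 to 24, against 0.238, 0.221, 0.205 and 0.275 TPM in undifferentiated replicates 17 to 20. The full-length form was at 9.59, 3.83, 6.51 and 7.49 TPM in the same order of differentiated replicates, against 0.0130, 0.0330, 0.0259 and 0.0231 TPM in undifferentiated replicates. Both classes were far above the undifferentiated level in every differentiated library, and the exact two-sided permutation test gave p = 0.0286 for each, the smallest it can give with 4 against 4. The T-Shc form was at 2.84, 1.69, 2.03 and 2.47 TPM in differentiated replicates 21 to 24, while it was listed at 0 in undifferentiated replicates 17, 18 and 20 and at 0.00476 TPM in replicate 19.

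As a share of NTRK2 TPM, T1 was 76.6%, 83.5%, 79.3% and 77.5% in differentiated replicates 21 to 24, a mean of 79.3% ± 3.06 (SD, n = 4). The full-length form was 18.0%, 11.4%, 15.8% and 16.9%, a mean of 15.5% ± 2.89, and T-Shc was 5.22% ± 0.296. T1 exceeded the full-length form 5.30-fold ± 1.38, from 4.25-fold in replicate 21 to 7.31-fold in replicate 22. In undifferentiated cells the full-length form was 9.22% ± 3.45 of a total near 0.26 TPM. The full-length shares overlapped between the groups, and T1 made up 90.3% ± 3.92 in undifferentiated cells, above its share in every differentiated library. At so low a level the undifferentiated shares are a description only, with no test.

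**Figure D3:**
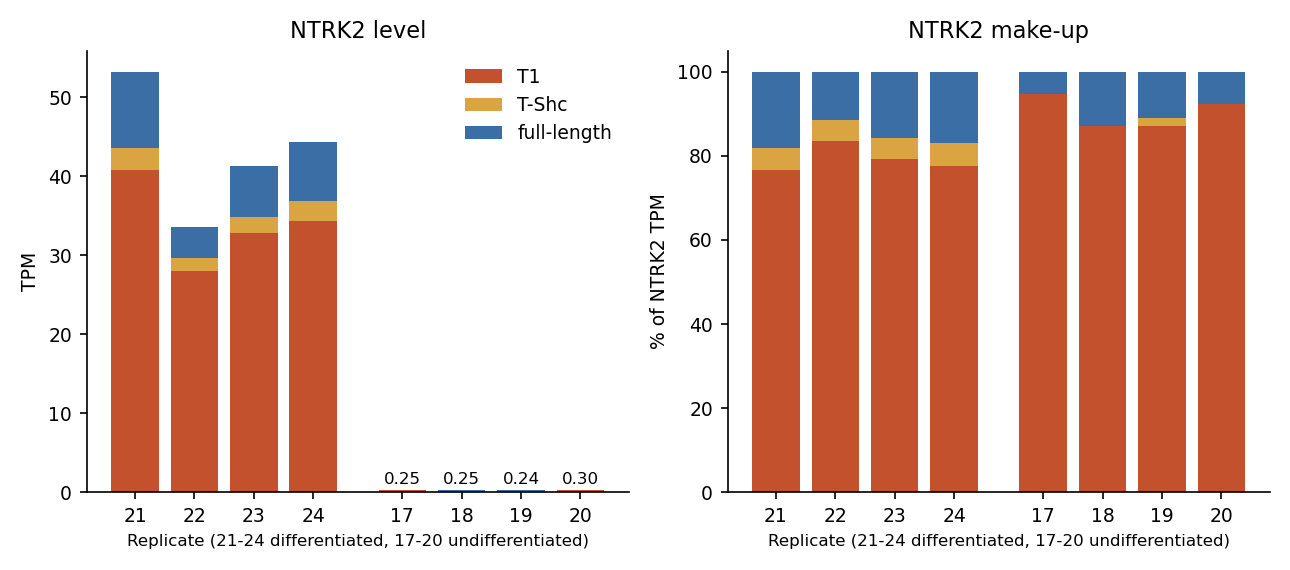
NTRK2 by class in each library (x axis, replicates 21 to 24 differentiated on the left, 17 to 20 undifferentiated on the right), as TPM (left panel) and as percent of the gene's TPM (right panel). T1 takes 76.6% to 83.5% of the bar in differentiated libraries, and the undifferentiated bars stand for 0.236 to 0.298 TPM in total.

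Among single transcripts, NTRK2-204 carried T1, at 33.9 ± 5.28 TPM in differentiated cells and 0.235 ± 0.0299 TPM in undifferentiated cells. Its log2 fold change of TPM + 1 was 4.81 (adjusted p = 9.16e-08, limma over 53044 transcripts, of which 18.8% were called higher). NTRK2-206 led the full-length class, at 5.95 ± 2.21 TPM in differentiated cells and 0.0155 ± 0.0117 TPM in undifferentiated cells (log2 fold change of TPM + 1 2.72, adjusted p = 5.83e-05, limma over all transcripts tested). Both transcripts reached the minimum mean of the test only through the differentiated group, so their calls are not read against that share. With undifferentiated levels near 0 the pseudocount largely sets these fold changes, so they do not rank the transcripts. The means differed 145-fold for NTRK2-204 and 384-fold for NTRK2-206. The T-Shc transcripts, which differ only by an internal exon, traded places between libraries. NTRK2-205 was 2.84, 0, 1.35 and 0.403 TPM in differentiated replicates 21 to 24 and NTRK2-202 was 0, 1.69, 0.680 and 2.07 TPM, although their sum ranged only from 1.69 to 2.84 TPM. NTRK2-207 was 1.41 and 2.23 TPM in differentiated replicates 21 and 23 and listed at 0 in replicates 22 and 24. NTRK2-206, which differs from it only by an internal exon, was 8.18, 3.83, 4.29 and 7.49 TPM in differentiated replicates 21 to 24. NTRK2-206 was lowest in replicate 22, where NTRK2-207 was listed at 0, so this pair did not trade places in the same way. The T-Shc total thus varied less than either of its transcripts.

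**Figure D4:**
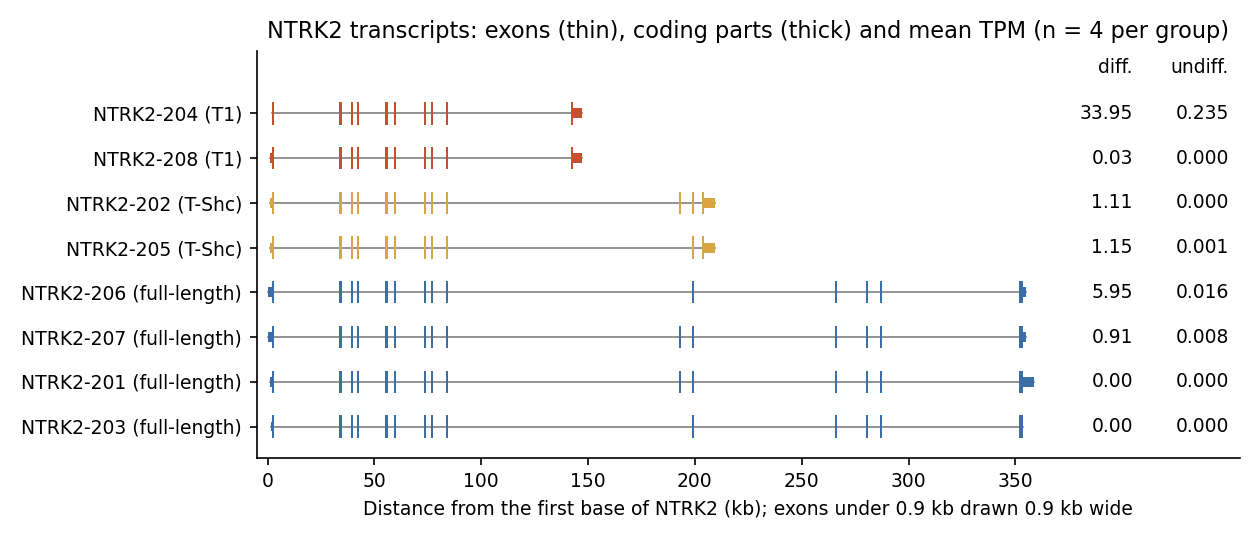
Exons (thin) and coding parts (thick) of the 8 NTRK2 transcripts against distance from the first base of the gene (x axis, kb), coloured by class, with the mean TPM of differentiated and undifferentiated libraries at the right (n = 4 each). The T1 transcripts end soonest, and NTRK2-204 among them carries 33.9 TPM in differentiated cells, while NTRK2-206 runs to the last exons and carries 5.95 TPM.

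NTRK3 (ENSG00000140538, minus strand, chr15:87859751-88256768), the gene of the neurotrophin-3 receptor TrkC, stayed below 0.5 TPM in every library. It was at 0.479, 0.134, 0.115 and 0.112 TPM in differentiated replicates 21 to 24, against 0.0858, 0.0511, 0.0914 and 0.0990 TPM in undifferentiated replicates 17 to 20. The groups did not overlap, but the differentiated mean rested on replicate 21, and the gene was below the minimum of the test across genes. The exact two-sided permutation test gave p = 0.0286 with all libraries, 0.0571 without differentiated replicate 21, 0.171 to 0.257 with any 1 undifferentiated replicate left out, and 0.400 within lane 8. With 4 against 2 libraries in lane 8 this test cannot reach 0.05 whatever the values, so the lane 8 result decides nothing. By class, transcripts with the kinase motifs averaged 0.0234 ± 0.0333 TPM in differentiated cells and 0.0381 ± 0.0333 TPM in undifferentiated cells, and the truncated class, without those motifs, 0.0308 ± 0.0267 TPM in differentiated cells and 0.0438 ± 0.0283 TPM in undifferentiated cells. The groups overlapped in both classes. The kinase-motif class included transcripts that stop before the full-length coding end: NTRK3-211, of 145 amino acids, gave all of the 0.0728 TPM in differentiated replicate 23, and NTRK3-212, of 705 amino acids, gave 0.0566 of the 0.0875 TPM in undifferentiated replicate 20. Other transcripts, non-coding or incomplete and without the motifs, were at 0.416, 0.114, 0 and 0.0928 TPM in differentiated replicates 21 to 24 and listed at 0 in all 4 undifferentiated libraries.

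NGFR (ENSG00000064300, plus strand, chr17:49495293-49515017), the gene of the p75 receptor, was low in both groups and higher after treatment. Its level was 2.16, 2.18, 2.14 and 2.19 TPM in differentiated replicates 21 to 24, against 0.417, 0.517, 0.570 and 0.326 TPM in undifferentiated replicates 17 to 20. The differentiated libraries differed little among themselves, and the groups did not overlap. The log2 fold change of TPM + 1 was 1.12 ± 0.10 (SE, adjusted p = 3.65e-05, limma), and the means differed 4.73-fold. All of it came from NGFR-201, which encodes the 427-residue receptor. The NGFR call held within lane 8 (1.13, adjusted p = 0.00135, limma).

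SORT1 (ENSG00000134243, minus strand, chr1:109309568-109397951) encodes sortilin, which binds pro-neurotrophins together with p75 and sorts proteins between the Golgi and endosomes. It was well expressed in both groups, at 34.1, 23.4, 28.6 and 31.9 TPM in differentiated replicates 21 to 24, against 22.4, 22.2, 22.2 and 21.9 TPM in undifferentiated replicates 17 to 20. Every differentiated library was above the undifferentiated ones, replicate 22 by the least. The log2 fold change of TPM + 1 was 0.38 ± 0.11 (SE, adjusted p = 0.0157, limma), a 1.33-fold ratio of means. It was 0.26 after median-of-ratios scaling, where the levels were 28.0 ± 2.12 in differentiated cells and 23.2 ± 0.321 in undifferentiated cells (adjusted p = 0.00641, limma). Within lane 8 it was 0.39 and did not pass (adjusted p = 0.0960, limma).

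SORT1 varied across the differentiated libraries in the same order as the median of all tested genes, lowest in replicate 22 and highest in replicate 21, and so did NTRK2; the part of this in either result was not tested. After median-of-ratios scaling NTRK2 was at 46.4, 35.8, 40.3 and 40.5 in differentiated replicates 21 to 24, against 0.250 to 0.310 in undifferentiated libraries, with replicate 22 still the lowest of its group. The protein-coding SORT1-201 reached 25.6 ± 3.17 TPM in differentiated cells and 18.4 ± 0.327 TPM in undifferentiated cells (log2 fold change 0.45, adjusted p = 0.00695, limma over all transcripts tested). Its share of the gene was 87.2% in differentiated cells and 83.1% in undifferentiated cells, and the share did not pass (adjusted p = 0.262, limma over transcript shares, of which 3.29% were called). The retained-intron transcript SORT1-205 was at 1.31 ± 0.435 TPM in differentiated cells and 1.28 ± 0.227 TPM in undifferentiated cells. SORT1-209 was at 2.51 ± 1.21 TPM in differentiated cells and 2.11 ± 0.251 TPM in undifferentiated cells, and neither passed.

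TPM is a per-length level, so the members can be ordered within a group. In differentiated cells the order was NTRK2, SORT1, NGFR, BDNF, NTRK3 and NTF3. The ranges of NTRK2 and SORT1 overlapped there, and no other neighbours did. In undifferentiated cells the order was SORT1, BDNF, NGFR, NTRK2, NTRK3 and NTF3, with no overlap between neighbours. NTRK2 was thus below BDNF, NGFR and SORT1 in undifferentiated cells and level with or above all of them in differentiated cells. Of the 4 members tested across genes, NTRK2, NGFR and BDNF had means of 1 TPM or more only through the differentiated group, so the number of members called is not read against the background.

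For each tested member, the 3 protein-coding genes with the nearest levels over the 8 libraries were taken from 12605 genes, by Euclidean distance of log2(TPM + 1). NTRK2 was nearest to HAS2, a hyaluronan synthase gene, at a distance of 0.549, with 47.3 ± 2.14 TPM in differentiated cells and 0.294 ± 0.0786 TPM in undifferentiated cells. ODAM and ST8SIA6 followed, at distances of 0.699 and 0.706. NGFR was nearest to the aquaporin gene AQP11 (0.243), then NRG3 and MROH7. SORT1 was nearest to C19orf12 (0.172), then TOR1B and TBCK, and BDNF to ZHX2 (0.235), then MAP10 and DDTL. The distance measures likeness of level and of difference together.

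Further ligands and receptors of the family were taken from a list of 5 genes, of which 2 were tested, 1 rose and none fell. Beside this and each list below stand the shares over all tested genes, 33.9% that rose and 17.4% that fell. SORCS1, a sortilin-family receptor, was at 81.0 ± 14.6 TPM in differentiated cells and 47.0 ± 1.39 TPM in undifferentiated cells (log2 fold change 0.75, adjusted p = 0.00109, limma). SORL1 was not called (0.37, adjusted p = 0.0951, limma), but passed over protein-coding transcripts alone (0.43, adjusted p = 0.0242) and without differentiated replicate 22 (0.53, adjusted p = 0.00351). SORCS2 and SORCS3 were under the minimum of the test. NTF4 was at 2.03, 0.386, 0.648 and 0.477 TPM in differentiated replicates 21 to 24 and listed at 0 in 3 of 4 undifferentiated libraries, with 0.0523 TPM in replicate 18.

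Among 14 genes of pro-neurotrophin cleavage and secretion, 7 were tested, of which 3 rose and 2 fell. Their median log2 fold change was 0.19, against 0.10 over all genes tested. PLAT, tissue plasminogen activator, which activates the plasmin that cuts proBDNF, was at 134 ± 5.53 TPM in differentiated cells and 2.80 ± 0.238 TPM in undifferentiated cells (log2 fold change 5.15). SERPINI1, neuroserpin, an inhibitor of that activator, fell to 6.26 ± 0.565 TPM in differentiated cells against 8.50 ± 1.40 TPM in undifferentiated cells (-0.38), but did not pass within lane 8 (-0.30, adjusted p = 0.0758, limma) or without differentiated replicate 24 (-0.33, adjusted p = 0.0559, limma). PLG, the plasmin precursor, was at 1.43 ± 0.717 TPM in differentiated cells and 1.32 ± 0.454 TPM in undifferentiated cells and was not called. FURIN, a proprotein convertase of the Golgi, rose (0.67), while the convertase gene PCSK6 fell, to 1.80 ± 0.449 TPM in differentiated cells against 6.60 ± 1.40 TPM in undifferentiated cells (-1.44).

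Of 17 partners and processing enzymes of p75, 16 were tested, 7 rose and 1 fell, with a median of 0.23, while 4 rose and 3 fell after median-of-ratios scaling, as after quantile normalization. TNFRSF19, a TNF-receptor relative that can join the Nogo receptor complex in the place of p75, was at 6.21 ± 0.860 TPM in differentiated cells and 1.51 ± 0.213 TPM in undifferentiated cells (log2 fold change 1.52). LINGO1, another part of that complex, fell to 1.42 ± 0.273 TPM in differentiated cells against 3.40 ± 0.229 TPM in undifferentiated cells (-0.87). NCSTN (0.77), which encodes the gamma-secretase subunit nicastrin, and the MAGE-family gene MAGEH1 (0.53) rose, but MAGEH1 did not pass after quantile normalization (0.33, adjusted p = 0.0672, limma). The cytoplasmic partner genes did not move together. BEX3 (0.24), MAGED1 (0.17) and IRAK1 (0.25) rose, and BEX1, RHOA, RIPK2, TRAF6 and ARHGDIA were not called.

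Among 25 Trk adaptors and effectors, 24 were tested, 10 rose and 3 fell, with a median of 0.09, about that of all genes tested, while 6 rose and 9 fell after quantile normalization. The Shc adaptor genes did not move together. SHC2 was at 19.0 ± 2.79 TPM in differentiated cells and 6.13 ± 1.12 TPM in undifferentiated cells (log2 fold change 1.49), SHC1 (0.77) and SHC4 (0.44) rose, and SHC3 fell (-0.50). The adaptor genes SH2B3 (0.87) and SH2B2 (0.77) rose, and the phospholipase gene PLCG1, which is recruited by activated Trk receptors, fell (-0.23). Of 13 genes of Trk turnover and modulation, 12 were tested, 8 rose and none fell, with a median of 0.32, where 33.9% of all tested genes rose and 17.4% fell. The ubiquitin ligase gene NEDD4L was at 11.7 ± 4.42 TPM in differentiated cells and 6.53 ± 0.393 TPM in undifferentiated cells (0.69, adjusted p = 0.0345, limma). NEDD4L did not pass without a filter on low values, after quantile normalization, within lane 8, without differentiated replicate 21 or 24, or with any 1 undifferentiated library left out (0.46 to 0.72, adjusted p from 0.0593 to 0.146, limma). SQSTM1 (0.67), the receptor phosphatase gene PTPRF (0.59) and the deubiquitinase gene USP8 (0.46) also rose, but SQSTM1 did not pass over protein-coding transcripts alone (0.17, adjusted p = 0.153, limma). The number of these turnover genes that rose was 4 with undifferentiated replicate 17, 18 or 19 left out, 5 with undifferentiated replicate 20 or differentiated replicate 21, 23 or 24 left out, and 4 after quantile normalization. The number of adaptor genes that fell was 5 without differentiated replicate 21 and 1 without undifferentiated replicate 19.

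Of 19 genes known to be induced by neurotrophin signalling, 15 were tested, 7 rose and 3 fell, with a median of 0.15. No neurotrophin is named in the labels of these cells. VGF, a neuropeptide precursor gene, was at 218 ± 31.9 TPM in differentiated cells and 41.7 ± 4.68 TPM in undifferentiated cells (log2 fold change 2.35, adjusted p = 1.18e-06, limma). The immediate-early genes FOS (2.12), EGR1 (1.43) and JUNB (1.25) rose, at 5.75 ± 0.814, 10.6 ± 1.68 and 17.1 ± 2.56 TPM in differentiated cells, against 0.549 ± 0.178, 3.42 ± 1.19 and 6.57 ± 0.839 TPM in undifferentiated cells. FOS reached the minimum of the test only through the differentiated group, so its call is not read against the shares over all genes. NR4A1 (-0.40), DUSP4 (-0.77) and NPTX2 (-0.80), which belong to the same list, fell, and ARC was not called.

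**Figure D5:**
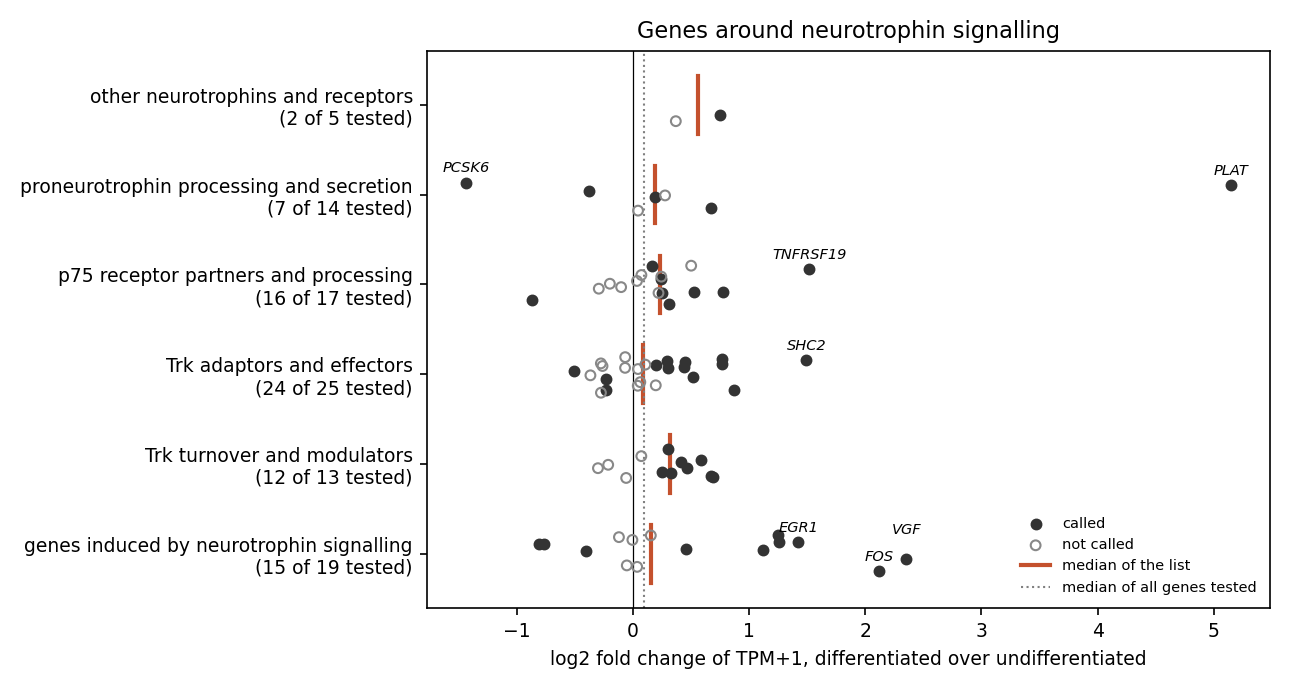
Log2 fold change of TPM + 1, differentiated over undifferentiated (x axis), for the tested genes of the 6 lists (rows). Filled points passed the limma test and open points did not, the red bar is the median of a list and the dotted line the median of all 17077 genes, 0.10; PLAT at 5.15, VGF at 2.35 and FOS at 2.12 lie farthest right.

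Glial cells also carry p75 and T1, so their markers are given beside NGFR and NTRK2. The counts that follow stand beside 33.9% of all tested genes that rose and 17.4% that fell. Of 10 Schwann cell markers, SOX10 and FOXD3 were listed at 0 in all 8 libraries, 5 were tested and 3 rose: S100B (12.5 ± 1.83 TPM in differentiated cells and 3.73 ± 0.710 TPM in undifferentiated cells), PMP22 and PRX. The summed level of the list was 63.3 to 72.1 TPM in differentiated libraries and 27.8 to 29.9 TPM in undifferentiated libraries. Of 6 astrocyte markers, 2 were tested and GJA1 rose, while GFAP was at 1.58 TPM in differentiated cells and 1.71 TPM in undifferentiated cells, and AQP4 and SLC1A3 were below 0.04 TPM in the mean of either group. The summed astrocyte level was 23.9 to 30.1 TPM in differentiated libraries and 17.8 to 19.5 TPM in undifferentiated libraries. Of 10 mesenchymal markers, 8 were tested and 4 rose, with a summed level of 765 to 924 TPM in differentiated libraries and 327 to 352 TPM in undifferentiated libraries. Of 5 epithelial markers 3 were tested and 2 rose, with sums of 13.5 to 18.0 TPM in differentiated libraries and 2.09 to 3.32 TPM in undifferentiated libraries. No endothelial marker reached the minimum. Among 6 blood markers CD68 was the only 1 tested and rose, at 20.9 TPM in differentiated cells and 0.338 TPM in undifferentiated cells, while CD3E, HBB and HBA1 were listed at 0. CD68 reached the minimum of the test only through the differentiated group, so its call is not read against the shares over all genes. The part of any of these markers in the NTRK2 and NGFR results was not tested.

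Promoter windows of 300 bases, from 250 before a start to 50 after it, were available for 5 of the 6 members, in 14 windows. Retinoic acid receptors bind direct repeats of a half-site. The half-site was searched as AGGTCA, with the variant spellings AGTTCA and also GGGTCA, and with the further spelling GGTTCA. Direct repeats of these with 1, 2 or 5 bases between them, on either strand and in any pairing, were found in 0 of these 14 windows and in 0.131%, 0.0399% and 0.0883% of 35116 windows of all genes. A single half-site was found in 4 of the 14 windows and in 38.6% of all windows. No match says only that these letters are not in these windows.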

How the data were processed

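Total RNA of 8 SH-SY5Y libraries, prepared with a stranded mRNA kit per the labels' protocols, was sequenced. The authors deposited 1 table of TPM (transcripts per 1000000) for 194993 transcripts, which sums to 1000000 TPM in each library. Salmon and FastQC 0.11.2 with the GRCh37 build are named per the submitters' processing notes, and no source used here gives the Salmon version, strand setting or annotation release. Transcript identifiers were matched to GENCODE 29, which matched 92.8% of transcripts and 93.2% to 95.0% of TPM per library, and 62 of the 67 member transcripts in that annotation. Positions and sequences are those of GENCODE 29 on GRCh38, a later build than the authors'; promoter windows are from RefSeq. TPM depends on the annotation and on how reads shared between transcripts are divided, and it holds no depth.

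TPM was summed per gene, and log2(TPM + 1) was tested with limma 3.58.1 (lmFit, eBayes with an intensity trend; R 4.3.3) for the 17077 genes that averaged at least 1 TPM, 4 differentiated against 4 undifferentiated libraries with no covariate, with Benjamini-Hochberg adjustment and a threshold of 0.05. The same was done for 53044 transcripts and, on the arcsine square root scale, for 22951 transcript shares. "Rose" and "fell" are used of genes past this threshold. Single values were tested with exact two-sided permutation tests, whose smallest p is 0.0286 with 4 against 4 or 4 against 3 libraries. It is above 0.05 with the 4 against 2 libraries of lane 8. NTRK2 and NTRK3 transcripts were split by whether the translated coding sequence held the kinase motifs HRD and DFG. No 2 libraries held identical values. The fits were tested on simulated data. The members, the gene lists, the marker lists and the alternatives were chosen with earlier results of these data known. Some genes of these lists are not reported here, and the counts leave them out. Named were the members, their transcripts of 0.5 TPM or more, up to 4 called genes with the largest change in each list, BDNF-AS, the markers and the 3 nearest genes of each tested member; other genes and transcripts named were chosen after their values were seen. Alternatives were other pseudocounts, no filter on low values, median-of-ratios and quantile scaling, no trend, exact tests, lane 8 alone, protein-coding transcripts alone, and each library left out.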

Additional observations from a re-analysis of the deposited data

Results flagged for a closer look

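Within groups of 4 libraries, a library was picked out when its gap to the nearest other library divided by the group's range exceeded Dixon's critical value. Chance alone picks out about 1 in 20 groups if the groups are independent and their values normally distributed. Here 13 of 98 groups were picked out. The groups were not all independent, since NTRK2 T-Shc and its transcript NTRK2-205 held the same values in undifferentiated libraries. A group with any TPM in only 1 library is always picked out. The count is therefore not read against the chance rate.

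Differentiated replicate 21 stood apart for NTRK3, at 0.479 TPM against 0.112 to 0.134 TPM in the other 3 libraries, and for NTF4, at 2.03 TPM against 0.386 to 0.648 TPM. Undifferentiated libraries stood apart by small amounts at low levels: NTF3 at 0.0356 TPM in replicate 19, NTF4 at 0.0523 TPM in replicate 18, NTRK2 T-Shc and its transcript NTRK2-205 at 0.00476 TPM in replicate 19, and NTRK2-207 at 0.0330 TPM in replicate 18, each listed at 0 in the other 3 libraries. NTRK3 transcripts with the kinase motifs summed to 0.0875 TPM in undifferentiated replicate 20, of which 0.0566 TPM was NTRK3-212, which stops before the full-length coding end, and to 0.0151 to 0.0273 TPM in the others. BDNF-AS was at 1.72 TPM in undifferentiated replicate 17 and at 1.03 to 1.10 TPM in the others. The rest were undifferentiated libraries close to their group: SORL1 at 5.90 TPM and MAGEH1 at 9.92 TPM in replicate 20, FURIN at 3.18 TPM in replicate 19 and SHC1 at 102.4 TPM in replicate 18.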

How the results depend on the processing

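NTRK2 and NGFR kept their direction under every alternative run and passed in each limma fit. The exact test gave each its smallest unadjusted p, and no gene passed it after adjustment. SORT1 did not pass in limma within lane 8 (0.39, adjusted p = 0.0960), nor BDNF after quantile normalization (0.28, adjusted p = 0.0749), and the cause was not tested. The NTRK3 difference was 0.13 within lane 8 and 0.15 without a filter (adjusted p = 0.295, limma), and 0.050 to 0.19 with 1 library left out. SORT1-205, not called, was -0.014 with a pseudocount of 0.1 and -0.082 to 0.13 with 1 library left out, and SORT1-209 -0.066 to 0.37.

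Genes called lower numbered 4458 after median-of-ratios scaling, 5061 after quantile normalization and 1914 within lane 8, against 2970. Adjusted exact tests called 0 genes, 0 higher and 0 lower, since 8475 genes shared the smallest p of 0.0286, where limma called 8761. Within lane 8, which has fewer libraries, 7598 transcripts and 20 shares were called, and 138 to 1111 shares with 1 library left out. After either other scaling 4 p75 partners rose and 3 fell. Trk adaptors that fell numbered 6 after median-of-ratios scaling and 9 after quantile normalization, where 6 rose. Turnover genes numbered 4 higher and 1 lower after quantile normalization. With 1 library left out, 1 to 2 further ligands and receptors rose (2 without differentiated replicate 22), 1 to 2 processing genes fell (1 without differentiated replicate 24), 1 to 2 p75 partners fell (2 without differentiated replicate 21 or 24), 1 to 5 adaptors fell and 4 to 7 turnover genes rose. No paired analysis was possible because the groups share no replicate number. Unknown depth limits what can be said of genes under 1 TPM.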
